A study of Homo sapiens with 12 samples.

Results

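The Notch receptors, their ligands and the HES/HEY genes examined here were NOTCH1, NOTCH2, NOTCH3, NOTCH4, JAG1, JAG2, DLL1, HES1, HEY1 and HEY2. These 10 genes were taken by symbol from a count table of 55882 symbols. All 10 were in the table, and 9 passed the filter on low counts that left 14799 genes for testing. HEY1, with 0 to 10 counts per library, did not pass.

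RNA was sequenced from T47D, an estrogen receptor-positive human breast cancer cell line of luminal epithelial type. There were 4 groups of 3 libraries. HOXB13 cells exposed to estradiol were T47D cells with ectopic HOXB13 given 2 nM estradiol for 24 h. HOXB13 cells in vehicle were the same cells given ethanol for 24 h. Control cells exposed to estradiol and control cells in vehicle were T47D cells labelled WT for genotype and treated in the same ways. All 4 groups were first held for 72 h in medium whose 10% serum had been stripped with charcoal to remove steroid hormones. The vector, the promoter that drove HOXB13 and whether the HOXB13 cells were 1 clone or a pool are not given in the labels used here. The series asked how ectopic HOXB13, a homeobox transcription factor best known from prostate, changed expression with and without estradiol.

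Notch receptors are membrane proteins that are activated by ligands of the Jagged and Delta families on a neighbouring cell. Ligand binding leads to cleavage of the receptor by an ADAM protease and then by gamma-secretase. The released intracellular domain enters the nucleus, where it joins the DNA-binding protein RBPJ and a Mastermind coactivator. HES and HEY genes are the classic targets of that complex and encode basic helix-loop-helix repressors. In the mammary gland Notch signalling is known for its part in luminal cell fate.

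The main differences followed estradiol. HES1 was lower and HEY2 and JAG2 were higher after estradiol in both genotypes. The tested HES/HEY genes among the members thus moved in opposite directions. NOTCH3, the most abundant receptor per length, was lower. No member passed the main test between HOXB13 and control cells. With the library number added to the fit as a block, JAG2 and HES1 passed on average over both treatments, where 2.61% of all genes were called. No member passed the test of a difference in estradiol response between the genotypes.

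The promoters of HES1 and HEY2 are shown because these targets responded in opposite directions. Each window runs from 250 bases before to 50 bases after the annotated start, read 5′ to 3′ on the gene's strand from RefSeq on GRCh38.p14. The HES1 window is chr3:194135898-194136197 on the plus strand, and the HEY2 window is chr6:125749382-125749681 on the plus strand. Capitals mark the RBPJ core motif TGGGAA on either strand, so that TTCCCA is the same motif on the opposite strand.
HES1 promoter: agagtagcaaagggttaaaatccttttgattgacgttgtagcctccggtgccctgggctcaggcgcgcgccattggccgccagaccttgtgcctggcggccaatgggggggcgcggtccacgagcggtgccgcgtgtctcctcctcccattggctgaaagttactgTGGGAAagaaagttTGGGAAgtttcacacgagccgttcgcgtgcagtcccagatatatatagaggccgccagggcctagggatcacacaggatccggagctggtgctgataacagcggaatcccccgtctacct
HEY2 promoter: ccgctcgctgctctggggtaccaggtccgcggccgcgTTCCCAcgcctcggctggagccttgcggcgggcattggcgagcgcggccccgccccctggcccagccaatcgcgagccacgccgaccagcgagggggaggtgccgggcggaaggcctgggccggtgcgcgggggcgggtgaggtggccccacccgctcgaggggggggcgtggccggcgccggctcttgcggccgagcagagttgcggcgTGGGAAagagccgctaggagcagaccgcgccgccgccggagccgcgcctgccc

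Both windows held 2 matches to the RBPJ core. In HES1 both matches lay on the gene's own strand, with their first bases at -84 and -70 from the start. In HEY2 one began at -213 on the opposite strand and the other at -3 on the gene's strand. Of the 10 members 8 were matched to a promoter in the RefSeq table, and none of the other 6 windows (NOTCH1, NOTCH2, NOTCH3, NOTCH4, JAG1 and JAG2) held the core. The core occurred in 24% of the 35116 promoters searched. The N-box CACNAG, a motif that HES repressors bind, occurred 4 times in the HES1 window, 2 times in that of NOTCH1 and 1 time each in those of NOTCH2, NOTCH3 and NOTCH4. It had no match in the windows of HEY2, JAG1 and JAG2, and at least 1 match in 38% of all promoters. The E-box CACGTG (7.26% of promoters), the HOXB13 motif CCAATAAA (0.934%) and the full palindromic estrogen response element (0.057%) had no match in any of the 8 windows. All motifs were searched on both strands and none of these motifs is contained in another. A match is a run of letters and not a binding site.

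Total counts ran from 17679824 to 21385996 per library. HOXB13 had 110, 92 and 97 counts in HOXB13 cells with estradiol and 112, 106 and 108 in HOXB13 cells in vehicle. In control cells it had 0, 0 and 0 counts with estradiol and 2, 0 and 1 in vehicle, so the 12 libraries fitted their genotype labels. The 8 luminal markers summed to between 17530.9 and 25502.4 CPM (a gene's counts relative to the scaled library total) in every library. The endothelial markers, which matter here because NOTCH4 and HEY2 are known from vessels, summed to at most 0.313 CPM, and CDH5 was at 0 in every library. KRT5 reached 0.108 CPM and PTPRC 0.211 CPM. Libraries numbered 2 stood apart in all 4 groups along the second principal component, which held 17.8% of the variance, while the first held 35.5% and separated estradiol from vehicle. Among the members, the library numbered 2 was the lowest of its group for NOTCH2 and the highest for HES1 in 4 of 4 groups, and the lowest for NOTCH1, NOTCH3 and JAG2 in 3 of 4. The members' results are therefore also given without these libraries where that changed a call.

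**Figure D1:**
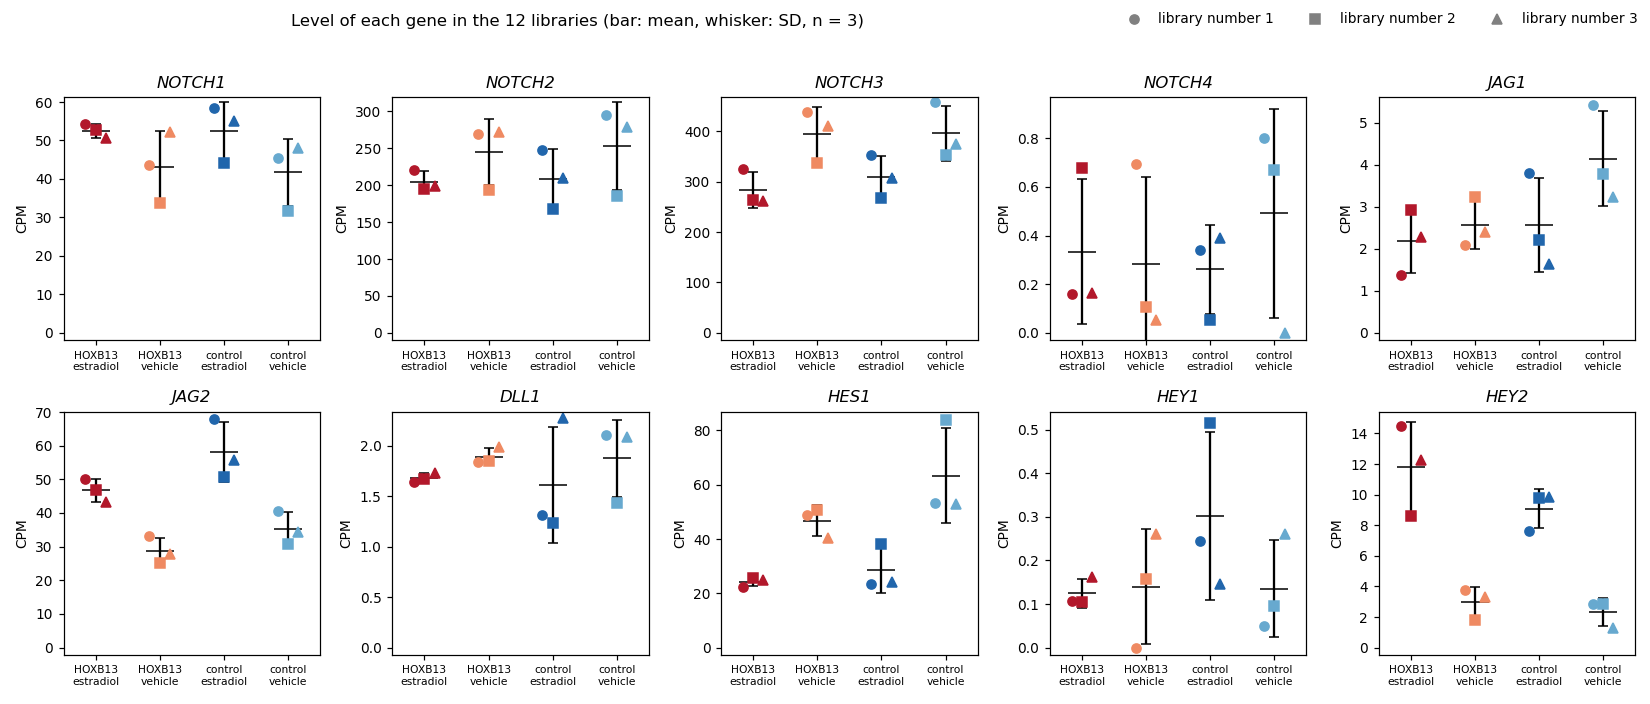
Level of each of the 10 genes in CPM (vertical axis) in the 12 libraries, by group, with the point shape giving the library number; horizontal bars are means and whiskers SD (n = 3), cut at the lower edge where they pass below 0. HES1 was between 22.3 and 38.2 CPM in the 6 estradiol libraries and between 40.2 and 83.8 CPM in the 6 vehicle libraries, and HEY2 was between 7.62 and 14.5 CPM with estradiol and between 1.30 and 3.77 CPM in vehicle.

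Levels were compared between genes as CPM per kilobase of exon. NOTCH3 was first in every group, with a mean per-length level of 32.7 ± 4.11 in HOXB13 cells with estradiol, 45.6 ± 6.10 in HOXB13 cells in vehicle, 35.7 ± 4.88 in control cells with estradiol and 45.7 ± 6.37 in control cells in vehicle (SD, n = 3 each, as for all such values). HES1 was second, at 15.4 ± 1.11 in HOXB13 cells with estradiol against 29.6 ± 3.60 in HOXB13 cells in vehicle, and at 18.1 ± 5.28 in control cells with estradiol against 40.2 ± 11.2 in control cells in vehicle. NOTCH2 came next, at 12.7 ± 0.893 in HOXB13 cells with estradiol against 15.2 ± 2.77 in HOXB13 cells in vehicle, and at 13.0 ± 2.52 in control cells with estradiol against 15.8 ± 3.69 in control cells in vehicle. HES1 and NOTCH3 were within their spread of each other in control cells in vehicle, and HES1 and NOTCH2 in control cells with estradiol. JAG2 and NOTCH1 followed. Their per-length levels were 8.01 ± 0.584 and 5.64 ± 0.198 in HOXB13 cells with estradiol, but 4.91 ± 0.685 and 4.64 ± 0.992 in HOXB13 cells in vehicle, where they did not differ beyond their spread. HEY2 was at 4.30 ± 1.09 and 1.08 ± 0.376 per kilobase in HOXB13 cells with estradiol and in vehicle, and at 3.32 ± 0.464 and 0.856 ± 0.329 in control cells with estradiol and in vehicle. DLL1 and JAG1 lay below 0.7 per kilobase in every group on average, and NOTCH4 and HEY1 below 0.12.

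Among the receptors NOTCH3 was lower with estradiol in HOXB13 cells and on average, while NOTCH1 and NOTCH2 passed on average with the library number as a block or without the libraries numbered 2, but not in the test of all 12 libraries without a block and with the filter on low counts. Genes were called at an adjusted p under 0.05 in edgeR's quasi-likelihood F test, with Benjamini-Hochberg adjustment over all genes tested. NOTCH3, a receptor known for its role in mural cells of vessels, had 325, 264 and 262 CPM in HOXB13 cells with estradiol, against 440, 337 and 410 CPM in HOXB13 cells in vehicle. Every estradiol library was below every vehicle library. The log2 fold change was -0.48 ± 0.14 (SE; adjusted p = 0.0372), or 1.40-fold lower. That call was lost when any of 6 single libraries was left out, with adjusted p between 0.0171 and 0.167 over the 12 omissions.

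In control cells NOTCH3 had 353, 268 and 307 CPM with estradiol, against 459, 354 and 376 CPM in vehicle. The groups came close but did not overlap, as was true of 30.9% of genes tested in control cells and 29.9% in HOXB13 cells. The log2 fold change of -0.36 ± 0.14 did not pass (adjusted p = 0.112), whereas it did with the library number as a block (adjusted p = 0.000246) and without the libraries numbered 2 (adjusted p = 0.0347). Averaged over both genotypes, NOTCH3 fell by 0.42 ± 0.10 on the log2 scale (adjusted p = 0.00616), and it was lower in 6 of 6 pairs of estradiol and vehicle libraries with the same number.

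NOTCH1, a broadly expressed receptor, had 54.2, 52.8 and 50.5 CPM in HOXB13 cells with estradiol, against 43.6, 33.8 and 52.3 CPM in HOXB13 cells in vehicle. Control cells had 58.4, 44.1 and 55.1 CPM with estradiol, against 45.4, 31.8 and 47.9 CPM in vehicle. The groups overlapped in both genotypes, with the libraries numbered 2 low in vehicle. The average log2 fold change was 0.31 ± 0.12 (adjusted p = 0.0779), and it passed with the block (adjusted p = 0.00073), without the libraries numbered 2 (0.21, adjusted p = 0.0403) and with no filter on low counts (adjusted p = 0.0169). Leaving out only the HOXB13 vehicle library numbered 3 or only the control estradiol library numbered 2 also let it pass (adjusted p = 0.0312 and 0.0457). With the block NOTCH1 also passed within HOXB13 cells (adjusted p = 0.0262) and within control cells (adjusted p = 0.0117).

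NOTCH2 had 221, 194 and 199 CPM in HOXB13 cells with estradiol, against 269, 193 and 272 CPM in HOXB13 cells in vehicle. In control cells it had 248, 167 and 210 CPM with estradiol, against 295, 186 and 279 CPM in vehicle. The average log2 fold change was -0.27 ± 0.13 (adjusted p = 0.140). It passed with the block (adjusted p = 0.00109), without the libraries numbered 2 (-0.34, adjusted p = 0.000434) and with no filter on low counts (adjusted p = 0.0178). It also passed without only the HOXB13 vehicle or only the control vehicle library numbered 2 (adjusted p = 0.0495 and 0.0215). Within HOXB13 cells the adjusted p was 0.417, against 0.0344 with the block and 0.0104 without the libraries numbered 2. Within control cells it was 0.352, against 0.0147 with the block and 0.0193 without those libraries. NOTCH2NL, a near-identical partial copy of NOTCH2, averaged 24.5 CPM with estradiol and 36.3 CPM in vehicle and fell by 0.56 ± 0.14 on the log2 scale (adjusted p = 0.00993). Reads shared by NOTCH2 and NOTCH2NL cannot be assigned with certainty, so both values are uncertain.

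As shares of the summed per-length level of the receptors, NOTCH3 made up 63.9% ± 1.55 in HOXB13 cells with estradiol and 69.7% ± 1.83 in HOXB13 cells in vehicle. In control cells the NOTCH3 share was 65.8% ± 1.19 with estradiol and 69.4% ± 3.63 in vehicle. NOTCH1 made up 11.1% ± 0.796 in HOXB13 cells with estradiol against 7.06% ± 0.851 in HOXB13 cells in vehicle, and 10.4% ± 0.427 in control cells with estradiol against 6.77% ± 0.915 in control cells in vehicle. The mean NOTCH1 share was thus larger with estradiol in both genotypes and the mean NOTCH3 share smaller. NOTCH2 stayed between 23.2% and 25.0% on average in all groups. The shares depend on one another, since a lower NOTCH3 level alone makes the other shares larger. In CPM the NOTCH1 libraries overlapped in both genotypes.

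NOTCH4, best known from endothelium, had 3, 13 and 3 counts in HOXB13 cells with estradiol and 14, 2 and 1 in HOXB13 cells in vehicle. Control cells had 7, 1 and 8 counts with estradiol and 16, 14 and 0 in vehicle. Summed over a group this was 0.265 to 0.500 CPM, with 95% Poisson intervals that lay between 0.151 and 0.714 CPM, and no difference was detectable at this depth. NOTCH4 also shares 98 exon bases with GPSM3 on the same strand in the GENCODE annotation.

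JAG2 was the one ligand that changed with estradiol, and it rose in both genotypes. It had 50.03, 46.9 and 43.2 CPM in HOXB13 cells with estradiol, against 33.1, 25.3 and 27.7 CPM in HOXB13 cells in vehicle. Control cells had 68.0, 50.6 and 55.6 CPM with estradiol, against 40.7, 30.7 and 34.3 CPM in vehicle. Every estradiol library was above every vehicle library of the 12, and 15.8% of genes tested had no such overlap in either direction. The log2 fold change was 0.70 ± 0.15 in HOXB13 cells (adjusted p = 0.00494) and 0.72 ± 0.14 in control cells (adjusted p = 0.00355), which is 1.63-fold and 1.65-fold. The rise over the 6 same-numbered pairs ran from 0.60 to 0.89 on the log2 scale. JAG2 shares 252 exon bases with the annotated gene AL512356.1 on the same strand, which leaves some of its reads uncertain.

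JAG1, the other Jagged ligand, was scarce. It had 1.38, 2.92 and 2.27 CPM in HOXB13 cells with estradiol, against 2.08, 3.22 and 2.41 CPM in HOXB13 cells in vehicle. In control cells it had 3.81, 2.22 and 1.65 CPM with estradiol, against 5.42, 3.78 and 3.24 CPM in vehicle. It was lower with estradiol in 6 of 6 same-numbered pairs, by 0.08 to 0.97 on the log2 scale, but the average of -0.46 ± 0.25 did not pass (adjusted p = 0.185; interval -0.99 to 0.07). JAG2 exceeded JAG1 in every library per length, by 24.2 ± 11.1 times in HOXB13 cells with estradiol against 11.9 ± 4.09 times in HOXB13 cells in vehicle, and by 25.2 ± 8.27 times in control cells with estradiol against 8.90 ± 1.66 times in control cells in vehicle.

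DLL1, a Delta ligand, had 1.65, 1.67 and 1.73 CPM in HOXB13 cells with estradiol, against 1.84, 1.85 and 1.99 CPM in HOXB13 cells in vehicle. Control cells had 1.32, 1.24 and 2.28 CPM with estradiol, against 2.11, 1.44 and 2.09 CPM in vehicle. The libraries did not overlap in HOXB13 cells, as was true of 29.9% of genes tested, and overlapped in control cells. The average log2 fold change was -0.19 ± 0.21 (adjusted p = 0.541; interval -0.64 to 0.25).

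The largest estradiol differences of the members were in the target genes. HES1, a repressor that also binds its own promoter, had 22.3, 25.6 and 25.0 CPM in HOXB13 cells with estradiol, against 49.0, 50.9 and 40.2 CPM in HOXB13 cells in vehicle. In control cells it had 23.6, 38.2 and 24.0 CPM with estradiol, against 53.3, 83.8 and 53.0 CPM in vehicle. The estradiol and vehicle libraries did not overlap over both genotypes, and 15.8% of genes tested had no such overlap in either direction. The margin was narrow, from 38.2 CPM in control cells with estradiol to 40.2 CPM in HOXB13 cells in vehicle. Within each group the library numbered 2 was the highest. The log2 fold change was -0.94 ± 0.21 in HOXB13 cells (adjusted p = 0.00727) and -1.15 ± 0.21 in control cells (adjusted p = 0.00157), which is 1.92-fold and 2.22-fold lower. Averaged over both genotypes HES1 fell by 1.05 ± 0.15 (adjusted p = 9.72e-05), and by 1.03 without the libraries numbered 2.

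HEY2, a HES-related repressor best known from heart and vessels, had 14.5, 8.60 and 12.2 CPM in HOXB13 cells with estradiol, against 3.77, 1.80 and 3.30 CPM in HOXB13 cells in vehicle. Control cells had 7.62, 9.80 and 9.84 CPM with estradiol, against 2.86, 2.87 and 1.30 CPM in vehicle. The lowest estradiol library was above the highest vehicle library, and 15.8% of genes tested had no overlap in either direction. The log2 fold change was 1.99 ± 0.31 in HOXB13 cells (adjusted p = 0.000683) and 1.95 ± 0.31 in control cells (adjusted p = 0.000732), which is 3.97-fold and 3.85-fold. Ordered by fold change, HEY2 was number 76 of the 14799 genes in HOXB13 cells and number 97 in control cells.

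HEY1, whose low counts kept it out of the test, summed to 7 counts in HOXB13 cells with estradiol and 8 in HOXB13 cells in vehicle. In control cells HEY1 summed to 18 counts with estradiol and 8 in vehicle, with 10 of the 18 in the library numbered 2. The 95% Poisson intervals of the summed counts, which cover counting error only, ran from 0.0498 to 0.255 CPM in HOXB13 cells with estradiol and from 0.176 to 0.470 CPM in control cells with estradiol.

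The ratio of HES1 to HEY2 counts in the same library was 2.19 ± 0.729 in HOXB13 cells with estradiol and 17.8 ± 9.09 in HOXB13 cells in vehicle. In control cells it was 3.14 ± 0.732 with estradiol and 29.5 ± 10.99 in vehicle. HES1 counts exceeded those of HEY2 in every library, by 1.54 times at the least. Since the RNA came from whole cultures, fewer cells of a kind and less RNA per cell cannot be told apart in these or the other levels.

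**Figure D2:**
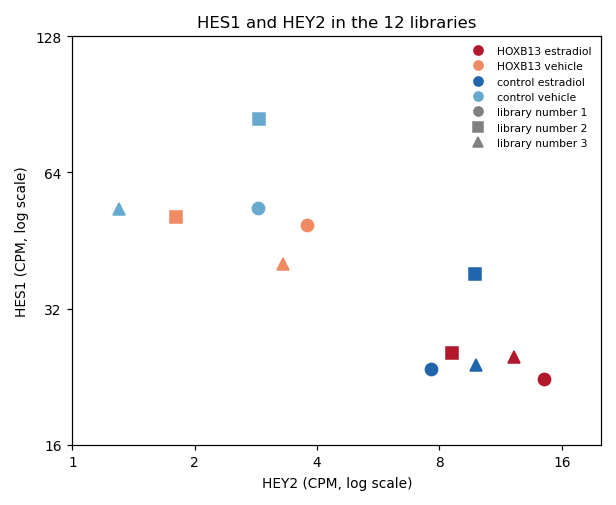
HES1 against HEY2 in CPM (both axes on a log scale) in the 12 libraries, coloured by group with the point shape giving the library number. The 6 estradiol libraries lie at the lower right and the 6 vehicle libraries at the upper left, and HES1 was above 40 CPM in vehicle only.

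In count, 4 of the 9 tested members were called with estradiol in HOXB13 cells (HEY2 and JAG2 higher, HES1 and NOTCH3 lower), where 13.6% of all genes tested were called, 7.22% higher and 6.38% lower. In control cells 3 of 9 were called (HEY2 and JAG2 higher, HES1 lower), where 15.4% were called, 8.65% higher and 6.72% lower. With the average of both genotypes 4 of 9 were called, against 28.1% of all genes (14.6% higher and 13.5% lower). The median log2 fold change was -0.27 over the 9 members and -0.01 over all genes. With the library number as a block 6 of 9 were called in HOXB13 cells, in control cells and on average, where 30.5%, 34% and 45.5% of all genes were called. The estradiol comparisons in the 2 genotypes share no library, but the average is made from both.

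The summed basal and myoepithelial markers were lower with estradiol in control cells, while their ranges overlapped in HOXB13 cells. Their 5 genes summed to 7.50 to 11.3 CPM in HOXB13 cells with estradiol against 10.0 to 16.1 CPM in HOXB13 cells in vehicle, and to 6.24 to 8.40 CPM in control cells with estradiol against 10.3 to 13.8 CPM in control cells in vehicle. MYLK, a myosin kinase of contractile cells, gave most of that sum (5.47 to 14.8 CPM over the 12 libraries), and KRT5, KRT14 and TP63 were each at 0 in at least 1 library and at most 0.575 CPM. Their part in the estradiol results was not tested.

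**Figure D3:**
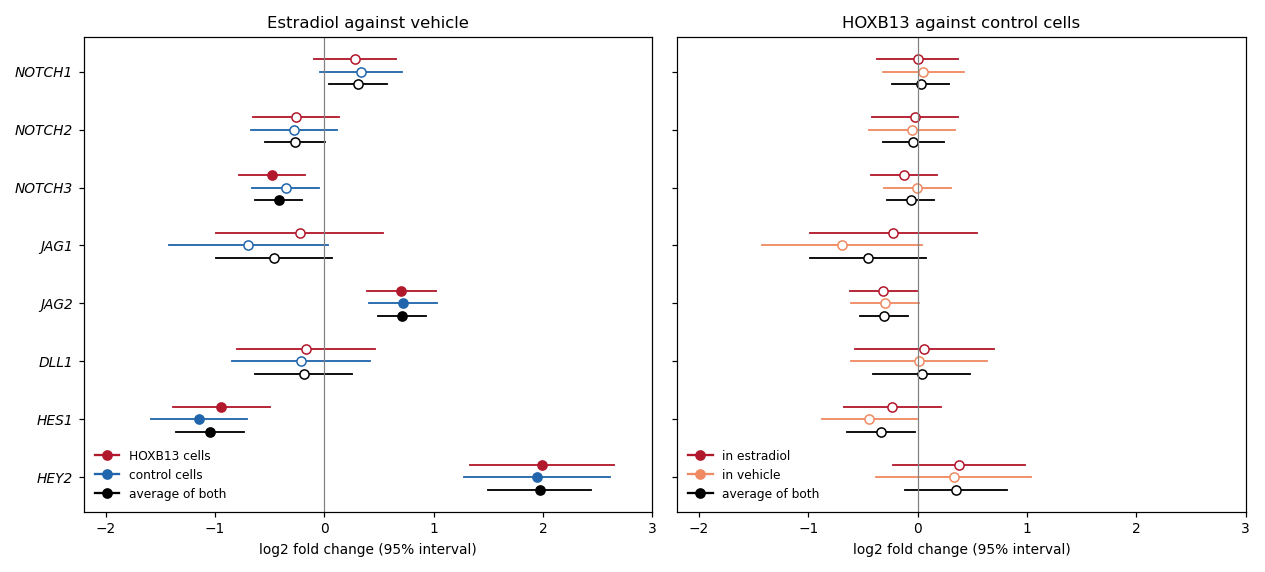
Log2 fold change (horizontal axis, lines are 95% intervals) of estradiol against vehicle (left panel) and of HOXB13 against control cells (right panel) for 8 of the tested genes, with filled points for an adjusted p under 0.05 and open points for the rest; NOTCH4, whose intervals are wider than the axis, is left out. HEY2, JAG2 and HES1 are filled in HOXB13 cells, control cells and the average on the left, with average values of 1.97, 0.71 and -1.05, and no point is filled on the right.

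Between HOXB13 and control cells no member was called. In estradiol, 0 of 9 passed (0.0135% of all genes did). In vehicle, 0 of 9 passed (0.0203% of all genes), and for the average of both treatments 0 of 9 passed (0.149% of all genes). DESeq2 also called none of the 9 in any of these comparisons, where it called 0.135% of all genes in each treatment and 0.703% on average. At an unadjusted p under 0.05 there was 1 member in estradiol (JAG2), 1 in vehicle (HES1) and 2 on average (both of them).

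JAG2 was lower in HOXB13 cells by 0.31 ± 0.14 in estradiol and by 0.30 ± 0.15 in vehicle on the log2 scale, with adjusted p of 0.999 and 1.0. In estradiol the 43.2 to 50.03 CPM of HOXB13 cells did not overlap the 50.6 to 68.0 CPM of control cells, as was true of 9.88% of genes. On average the log2 difference was -0.31 ± 0.10 (adjusted p = 0.497). It passed with the library number as a block (adjusted p = 0.00686), where 2.61% of all genes were called, and did not pass in the test without the libraries numbered 2 (-0.35, adjusted p = 0.0643).

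HES1 in vehicle was at 40.2 to 50.9 CPM in HOXB13 cells and 53.0 to 83.8 CPM in control cells. These ranges did not overlap, as was true of 7.14% of genes. On average HES1 differed by -0.34 ± 0.14 (adjusted p = 0.745), and with the block by -0.31 (adjusted p = 0.0422). Without the libraries numbered 2 the average was -0.13 (adjusted p = 0.692), so the size of the HES1 difference rested on them. Leaving out only the control estradiol or only the control vehicle library numbered 2 gave -0.20 and -0.21.

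HEY2 differed by 0.35 ± 0.22 between HOXB13 and control cells on average (adjusted p = 0.951; interval -0.11 to 0.82), and JAG1 by -0.46 ± 0.25 (adjusted p = 0.914; interval -0.98 to 0.07). The receptors NOTCH1, NOTCH2 and NOTCH3 had average differences of 0.03, -0.04 and -0.06, with intervals from -0.24 to 0.29, -0.32 to 0.24 and -0.28 to 0.15. The mural and fibroblast markers summed to 57.8 to 66.3 CPM in HOXB13 cells with estradiol against 63.7 to 71.4 CPM in control cells with estradiol, and to 55.1 to 63.9 CPM in HOXB13 cells in vehicle against 66.0 to 71.2 CPM in control cells in vehicle. COL1A1 gave most of that sum (51.5 to 64.1 CPM). It averaged 60.6 CPM in HOXB13 cells with estradiol against 60.3 CPM in control cells with estradiol. In vehicle COL1A1 averaged 57.0 CPM in HOXB13 cells against 60.3 CPM in control cells. RGS5 averaged 1.90 CPM in HOXB13 cells with estradiol against 5.03 CPM in control cells with estradiol, and 2.02 CPM in HOXB13 cells in vehicle against 5.96 CPM in control cells in vehicle. DES and PDGFRB were at or near 0. The part of these markers in the HOXB13 comparisons was not tested.

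The estradiol response of HOXB13 cells was set against that of control cells in a test of the difference itself. None of the 9 members passed, and 0% of all genes did. The lowest unadjusted p among the members was 0.359 (JAG1), none was under 0.05, and DESeq2 called none. The difference of the log2 fold changes, HOXB13 minus control cells, was 0.21 for HES1 with an interval from -0.41 to 0.83 and 0.04 for HEY2 with an interval from -0.90 to 0.99. For JAG2 it was -0.02 (-0.45 to 0.42) and for NOTCH3 -0.12 (-0.55 to 0.30). The called NOTCH3 change in HOXB13 cells and the uncalled one in control cells are therefore not shown to differ.

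Of the other listed genes of the pathway 69 were in the table and 56 were tested. With estradiol, averaged over both genotypes, 5 rose, 9 fell and 42 did not pass, where 14.6% of all genes tested were called higher and 13.5% lower. The called share of the list was thus no larger than the 28.1% of all genes. The median log2 fold change was -0.14 against -0.01 over all genes. Within HOXB13 cells 3 rose and 4 fell, where 13.6% of all genes were called, and within control cells 3 rose and 4 fell, where 15.4% were called. With the block the average gave 8 higher and 23 lower, where 45.5% of all genes were called.

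In the nuclear machinery MAML2, a Mastermind coactivator of the Notch transcription complex, averaged 8.34 CPM with estradiol and 17.98 CPM in vehicle and fell by 1.11 ± 0.12 on the log2 scale (adjusted p = 9.89e-06). MAML1, a second Mastermind, did not pass at -0.26 ± 0.10 (adjusted p = 0.0713; 0.00118 with the block and 0.00295 without the libraries numbered 2). RBPJ itself averaged 53.8 CPM with estradiol and 54.2 CPM in vehicle, a log2 difference of -0.01 ± 0.10 (adjusted p = 0.945). Among the listed corepressors 4 of 10 fell and none rose, where 13.5% of all genes were called lower. These were L3MBTL3 (-0.52), TLE1, a Groucho-family protein (-0.49), the histone demethylase KDM5A (-0.34) and CIR1 (-0.31). KDM5A lost its call when any of 9 single libraries was left out. With the block 9 of the 10 corepressors were lower and 1, CTBP1, was higher (adjusted p = 0.031). Of the 9 tested genes of the activation complex 1 was then higher and 4 lower. The block called 22.7% of all genes higher and 22.8% lower on average.

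Upstream of the nucleus, FURIN, which cleaves the receptor precursor, fell by 0.36 ± 0.07 (adjusted p = 0.00142), and NCSTN, a gamma-secretase subunit, fell by 0.24 ± 0.07 (adjusted p = 0.018). The NCSTN call was lost without the HOXB13 vehicle library numbered 1 (adjusted p = 0.0613) and with no filter on low counts (adjusted p = 0.0556). With the block 5 of the 9 tested receptor proteases were lower and none higher, where 22.8% of all genes were called lower. The endocytic adaptor NUMB, an inhibitor of Notch, and the Deltex-family ubiquitin ligase DTX2 fell by 0.35 ± 0.09 and 0.51 ± 0.09. NEURL1B, a ubiquitin ligase of the Neuralized family that acts on ligands, averaged 97.5 CPM with estradiol and 58.7 CPM in vehicle and rose by 0.73 ± 0.12 (adjusted p = 0.000364). LFNG, a glycosyltransferase that modifies the receptors, had a log2 difference of 0.21 ± 0.09 that did not pass (adjusted p = 0.122).

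Of the 5 other tested HES, HEY-related and NRARP genes 2 rose, where 14.6% of all genes were called higher. With the block 3 were higher, HES4 being added (adjusted p = 0.000158), and 1 was lower (BHLHE40, adjusted p = 0.0254). Of all genes the block called 22.7% higher and 22.8% lower. NRARP, a Notch target that acts against the complex, averaged 57.1 CPM with estradiol and 44.0 CPM in vehicle and rose by 0.38 ± 0.07 (adjusted p = 0.000948). HES6, an atypical HES protein, rose by 0.53 ± 0.15 (adjusted p = 0.0144). KAT2A, an acetyltransferase linked to the complex, rose by 0.56 ± 0.08 (adjusted p = 0.000111), and CCNC, the cyclin partner of CDK8, by 0.27 ± 0.08 (adjusted p = 0.0271). CCNC lost its call when any of 7 single libraries was left out. FBXW7, which marks the intracellular domain for breakdown, had a log2 difference of -0.19 ± 0.21 (adjusted p = 0.540). DLL3 and HEYL had no count in any library.

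**Figure D4:**
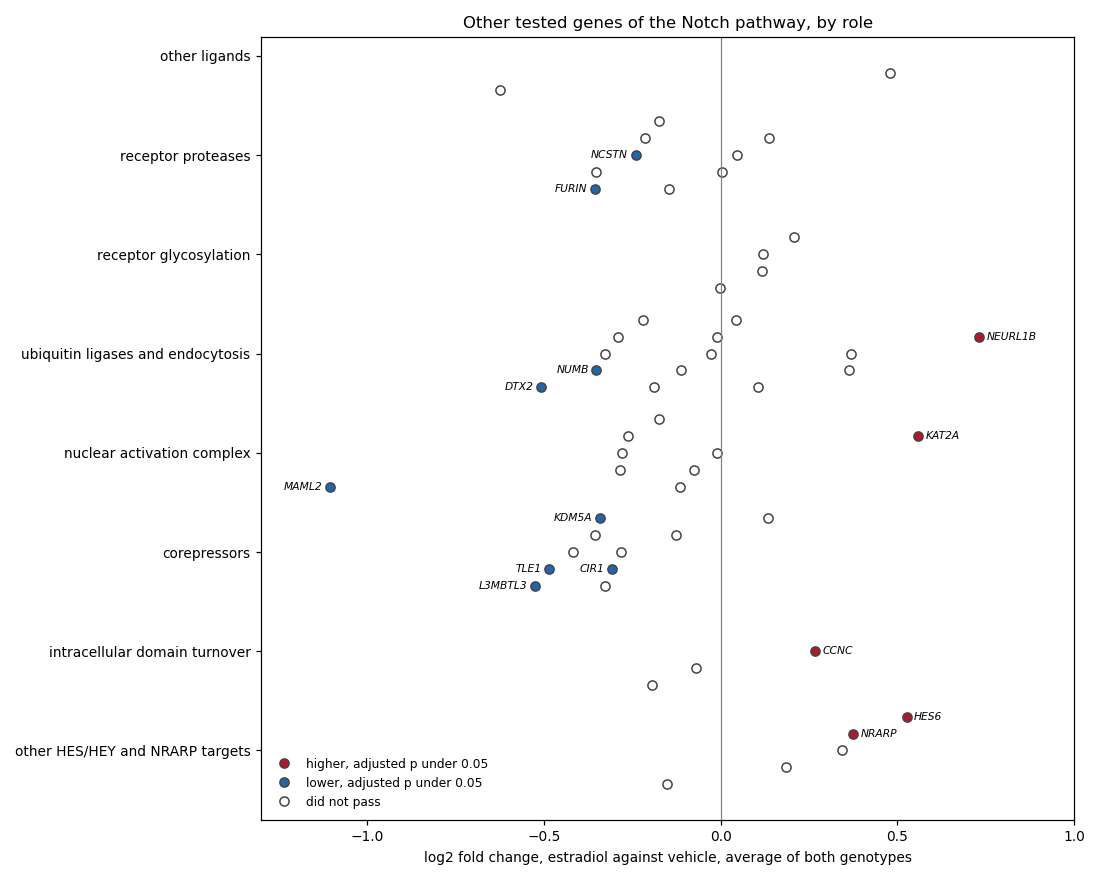
Log2 fold change of estradiol against vehicle, averaged over both genotypes (horizontal axis), for the 56 other tested genes of the pathway, grouped by role from top to bottom (spread within a role only separates points). Red and blue points are genes with an adjusted p under 0.05, 5 higher and 9 lower, and open points are the 42 that did not pass; MAML2 lies farthest left at -1.11 and NEURL1B farthest right at 0.73.

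None of the 56 passed between HOXB13 and control cells in estradiol, in vehicle or on average. With the block 4 passed on average, 2 higher (DTX4 and KAT2B) and 2 lower (TLE1 and HES4), where 2.61% of all genes were called. DTX4, a Deltex-family ubiquitin ligase named after its values were seen, averaged 9.28 ± 1.93 CPM in HOXB13 cells with estradiol against 5.23 ± 0.592 CPM in control cells with estradiol. In vehicle it averaged 10.7 ± 2.48 CPM in HOXB13 cells against 6.17 ± 1.53 CPM in control cells. The groups did not overlap in either treatment, as was true of 9.88% of genes in estradiol and 7.14% in vehicle. The average log2 difference of DTX4 was 0.81 ± 0.16 (adjusted p = 0.0911). It passed with the block (adjusted p = 0.000945) and in DESeq2 (adjusted p = 0.00139), which called 0.703% of all genes.

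The genes whose log2 CPM followed the most abundant receptor, ligand and HES/HEY gene most closely were found among 12014 genes over the 12 libraries. The highest Pearson correlations with NOTCH3 were those of GTF2I (r = 0.975), CASZ1 (r = 0.970) and GFPT1 (r = 0.964). For JAG2 they were SLFN13 (r = 0.969), BMP8B (r = 0.963) and LCMT2 (r = 0.958), and for HES1 they were LRRC28 (r = 0.975), MAN1B1 (r = 0.970) and JUNB (r = 0.963). The libraries share treatment, genotype and number, so these values are a description. After the group means were taken off, r with NOTCH3 was 0.936, 0.930 and 0.962 for GTF2I, CASZ1 and GFPT1. It was 0.891, 0.953 and 0.630 with JAG2 for SLFN13, BMP8B and LCMT2, and 0.871, 0.915 and 0.893 with HES1 for LRRC28, MAN1B1 and JUNB.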

How the data were processed

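The deposited table holds raw read counts per gene symbol, with 1 column for each of the 12 libraries. Per the submitters' processing notes, FastQC, STAR, Picard and HTSeq were used with the builds GRCh37 and hg19; their versions, the annotation and the strand setting were not stated in these sources. The overlaps of NOTCH4 with GPSM3 and of JAG2 with AL512356.1 are on the same strand, so no strand setting would separate their reads. Whether strand separated the reads of other overlapping genes is not known.

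The tests used edgeR 4.0.16 under R 4.3.3. Genes were kept by filterByExpr (minimum count 10, total 15), libraries were scaled by TMM, and a robust quasi-likelihood fit of the 4 group means over all 12 libraries gave F tests of 7 contrasts, adjusted by Benjamini-Hochberg over 14799 genes at 0.05. Of the 55882 symbols 30284 had no count. CPM values use the TMM-scaled library sizes, log2 CPM a prior count of 2, and intervals are 95%. Levels per kilobase use exon lengths of the GENCODE v29 basic annotation on GRCh38, which is not the authors' build, so they are approximate. No coordinates were converted. The test was tried on simulated counts with known changes before use.

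The labels do not say that libraries of a group were separate cultures, so the spread behind each p-value may be technical. Libraries with the same number deviated together from their group means, with correlations of 0.184 to 0.354 among HOXB13 libraries and 0.132 to 0.457 among control libraries, and between genotypes of 0.123 to 0.311 with estradiol and 0.125 to 0.409 in vehicle. All are over 0.1, and the block is given beside the members' calls and the list counts that it changed. Over all 4 groups the lowest was 0.0926, so the difference of responses was not treated as paired.

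The members and gene lists were chosen with earlier results of these data known. 1 gene of the pathway list is not reported here and was left out of the list's counts. Named genes are the members, HOXB13, pathway genes called in at least 1 comparison, RBPJ, NRARP, LFNG, FBXW7 and MAML1, and NOTCH2NL. Also named are the 3 genes most correlated with the most abundant receptor, ligand and HES/HEY gene at a mean log2 CPM of at least 1. Outside this rule, CTBP1, HES4, BHLHE40, KAT2B and DTX4 were named because they passed only in an alternative fit. DLL3 and HEYL, which had no count, were also named outside it. The alternatives tried were DESeq2 size factors (RLE), no filter on low counts, DESeq2 1.42.0, the replicate block, leaving out each library, and leaving out the 4 libraries numbered 2.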

Additional observations from a re-analysis of the deposited data

How the results depend on the processing

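All 153 alternative values of HES1, HEY2 and JAG2 for estradiol (17 alternatives in each of 3 comparisons per gene) kept their direction and passed the threshold. Of 1394 alternative values for single genes, 1266 kept direction and side of the threshold, 63 lost it, 24 gained it and 41 changed sign. The cause of these changes was not tested.

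With the replicate block, the members called with estradiol in control cells were 6 in place of 3, the other pathway genes 23 in HOXB13 cells, 22 in control cells and 31 on average, and all genes 4519 in HOXB13 cells, 5032 in control cells and 6731 on average (2012, 2275 and 4158 without it). For HOXB13 the block called 58 genes in estradiol, 60 in vehicle and 386 on average, among them 2 members and 4 other pathway genes, against 2, 3 and 22 without it. Without the libraries numbered 2, control cells had 5 members, 16 other pathway genes and 3567 genes called with estradiol. HOXB13 cells had 24 and 3285, the average had 28 pathway genes, and HOXB13 called 21 genes in estradiol, 37 in vehicle and 156 on average (1 in the pathway), with 1 gene for the difference of responses. DESeq2 called 12 other pathway genes with estradiol in HOXB13 cells, and for HOXB13 20 genes in estradiol, 20 in vehicle and 104 on average (1 in the pathway). With no filter on low counts these were 30, 62 and 141 (2 in the pathway), with 22 pathway genes on average for estradiol and 4 genes for the difference of responses. Other counts of calls stayed within 1.5 times.

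Leaving out single libraries, the genes called with estradiol ran from 1228 to 2232 in HOXB13 cells (other pathway genes 3 to 9) and from 1478 to 2758 in control cells (4 to 12), with 11 to 22 pathway genes on average. The highest values all came without the control vehicle library numbered 2. For HOXB13 they were 1 to 6 in vehicle and 10 to 32 on average.

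Without the libraries numbered 2 NOTCH4 was -1.19 for estradiol in HOXB13 cells, NOTCH3 0.029 for HOXB13 in vehicle, NOTCH1 -0.034 and DLL1 -0.11 for HOXB13 on average, and HEY2 -0.14 for the difference of responses. Leaving out single libraries, the estradiol change in HOXB13 cells ran from -0.82 to 2.01 for NOTCH4 and from -0.49 to 0.018 for JAG1, and on average from -0.86 to 0.55 for NOTCH4 and from -0.062 to 0.050 for RBPJ. The HOXB13 difference ran from -0.088 to 0.12 for NOTCH3 in vehicle, from -0.36 to 0.031 for HES1 in estradiol, and on average from -0.054 to 0.10 for NOTCH1, -0.13 to 0.034 for NOTCH2, -1.11 to 0.050 for NOTCH4 and -0.044 to 0.20 for DLL1. The difference of responses ran from -0.13 to 0.11 for JAG2, -0.038 to 0.47 for HES1 and -0.20 to 0.34 for HEY2. Depth limits NOTCH4 and HEY1, whose intervals cover counting error only.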
